A study of Mus musculus with 5 samples.

Results

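The 10 genes described here regulate the G1 phase of the cell cycle. They are the D cyclin genes Ccnd1, Ccnd2 and Ccnd3, the cyclin-dependent kinase genes Cdk4, Cdk6 and Cdk2, the Cip/Kip inhibitor genes Cdkn1a, Cdkn1b and Cdkn1c (products p21, p27 and p57), and Cdk10. They were chosen by symbol, and 9 of the 10 were listed, with 15 transcripts out of 22227 and 9 of 12588 gene sums in the whole table. Cdkn1c was not listed in the table and was not analysed here. Cdk10 was included for 1 transcript that the study had picked from these same libraries, so its values are no independent evidence of a difference.

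Growth factors raise D cyclin levels, and D cyclins bind and activate Cdk4 and Cdk6, which phosphorylate the retinoblastoma protein and its relatives. E2F factors are thereby released and switch on the E cyclins, which activate Cdk2 for entry into S phase. Cip/Kip proteins inhibit Cdk2, and in neural stem cells p21 and p27 are known for holding proliferation in check. Cdk10 pairs with cyclin M (gene Ccnq) and phosphorylates the transcription factor Ets2.

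RNA was sequenced from neural stem and progenitor cells (NSPCs) of C57BL/6J mice, grown under proliferation conditions (EGF and FGF-2, each at 20 ng/ml) with no treatment, with 2 libraries labelled WT (p75NTR+/+ littermates, replicates 1 and 4) and 3 labelled p75NTR-/- (deficient in the p75 neurotrophin receptor in every cell, replicates 1, 2 and 4). The labels give E12.5 embryos as the source, whereas the study's methods describe adult cells. The comparison addresses which genes depend on the receptor in these cells. The totals were 11688211 to 14452396 counts per library, and the values below are normalized counts, that is, counts divided by the library's size factor. All agents and the strain were shared by the 5 libraries.

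Ngfr, which encodes the receptor, had 0.98 and 2.08 normalized counts under the WT label, against 9.89, 141 and 251 under the p75NTR-/- label (replicates 1, 2 and 4). This order goes against the labels, the table does not give the deleted part of the gene by itself, and groups are therefore named as labelled. All 8 NSPC markers were listed, with a summed level of 8015 to 9035 TPM, the deposited level per transcript length and depth, in the libraries labelled WT and 8334 to 9505 in those labelled p75NTR-/-. Astrocyte markers (4 of 4 listed) summed to 550 to 895 and 444 to 615 TPM, with Gfap at 241 and 680 normalized counts under the WT label and at 11.9, 1.20 and 746 under the p75NTR-/- label. Oligodendrocyte lineage markers (2 of 4, without Sox10 and Mbp) summed to 104 to 178 and 102 to 298 TPM, neuronal markers (2 of 5, without Dcx) to at most 11.8 TPM, mural markers (2 of 4) to at most 10.8 TPM and ependymal markers (1 of 2) to at most 25.2 TPM. No marker of microglia (0 of 4), endothelium (0 of 3) or red blood cells (0 of 2) was listed. The 5 markers of cycling cells summed to 320 TPM in replicate 1 and 520 TPM in replicate 4 labelled WT, and to 682, 697 and 489 TPM in replicates 1, 2 and 4 labelled p75NTR-/-. In such bulk samples fewer cells of a type and less RNA per cell cannot be told apart. The study describes 4 replicates from separate NSPC preparations, whereas 2 libraries labelled WT and 3 labelled p75NTR-/- were available here. The labels name no animal or culture for a library.

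The NSPCs contained abundant Cdk4, Cdkn1a, Ccnd1 and Ccnd2 RNA and very little Cdk6 RNA. The mean TPM over the 5 libraries was 740 for Cdk4, 606 for Cdkn1a, 471 for Ccnd1, 217 for Ccnd2, 95.9 for Cdkn1b, 58.3 for Ccnd3, 26.4 for Cdk2, 19.5 for Cdk10 and 1.76 for Cdk6. The ranges of neighbours overlapped down to Cdkn1b and Ccnd3, did not overlap between Ccnd3 (44.9 to 69.1 TPM) and Cdk2 (17.3 to 34.9 TPM), overlapped again between Cdk2 and Cdk10, and did not overlap between Cdk10 (16.2 to 24.4 TPM) and Cdk6 (1.39 to 2.62 TPM). In normalized counts per kb of annotated transcript, Cdk4, Cdkn1a, Ccnd1 and Ccnd2 kept ranks 1 to 4 and Cdk6 rank 9, while Cdkn1b moved from rank 5 to rank 7. The transcripts differed in how many counts made 1 TPM per kb, from 1.62 for Cdk6 to 13.4 for Cdk10-201 (median 10.9 over 14842 transcripts with a mean of at least 50), so orders of neighbouring genes depend on the length used.

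None of the 9 genes passed the threshold between the labels. By limma, 0 of 9 gene sums were called in either direction (mean of at least 50 normalized counts, fold of at least 1.5 and adjusted p under 0.05), beside 0.00794% of all gene sums, all of it in the higher direction. An unadjusted limma p under 0.05 was reached by 0 of 9, beside 2.08% of all. edgeR's quasi-likelihood test called 0 (0% of all) and gave 0 of 9 an unadjusted p under 0.05 (2.11% of all), and DESeq2 called 0 (0.0556%) and gave 1 of 9 an unadjusted p under 0.05 (3% of all). Among the 15 transcripts limma called 0 (0.0135% of all), edgeR 0 (0%) and DESeq2 0 (0.131%). An unadjusted p under 0.05 was reached by 1 of 15, the Cdk10 transcript described further on, in limma (3.14% of all transcripts), edgeR (2.52%) and DESeq2 (4.04%). Without overlap between the labels, 2 of 15 transcripts were higher under the p75NTR-/- label (8.94% of all) and 1 of 15 was lower (7.61%), 3 of 15 in all against 16.6%. The median log2 difference of the 9 gene sums, p75NTR-/- label minus WT label, was 0.15, against 0.0039 over all gene sums, and it was -0.07 without replicate 1 labelled WT.

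**Figure D1:**
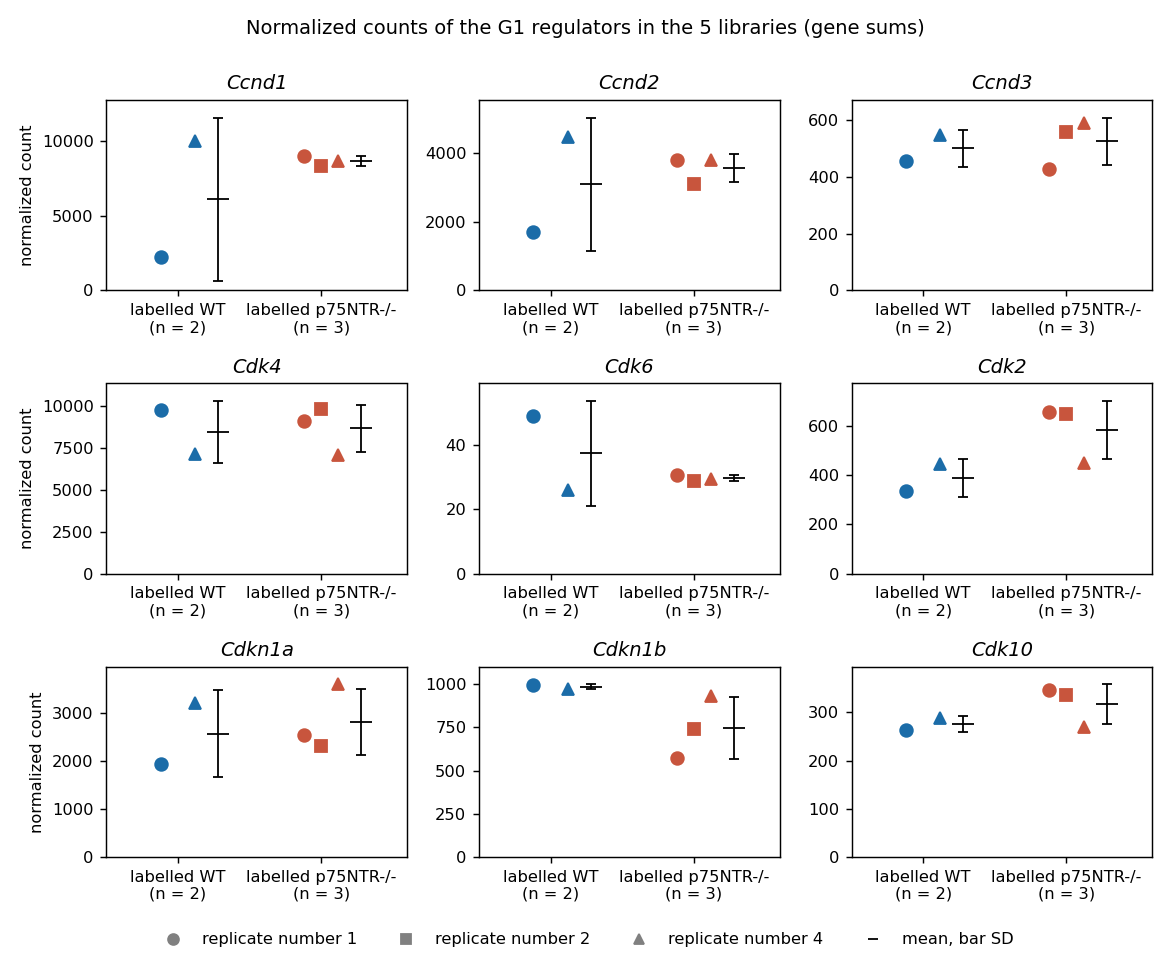
Normalized counts (linear axes from 0) of the 9 listed genes in each library, by label on the x axis, with the replicate number given by the symbol and the mean and SD at the right of each label. Ccnd1 and Ccnd2 are low only in replicate 1 labelled WT, Cdk4 is low in both libraries numbered 4, and the labels do not overlap for Cdk2 and Cdkn1b.

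Ccnd1 (ENSMUSG00000070348, GRCm38 chromosome 7 from 144929931 to 144939925), the D cyclin with the highest level in these cells, was at 2250.2 normalized counts in replicate 1 and 9953 in replicate 4 labelled WT, and at 8964, 8336 and 8677 in replicates 1, 2 and 4 labelled p75NTR-/-. Only replicate 1 labelled WT was low, and the library with the highest count carried the WT label too, so the labels overlapped. The log2 difference was 0.87 (standard error 0.63, limma adjusted p = 0.93), with 1.99 within number 1, -0.20 within number 4 and -0.20 without replicate 1 labelled WT. In that library Ccnd1 lay 1.97 below the median of the other 4 on the log2 scale, and only 46 of 10786 genes with a mean of at least 50 lay lower. Its single listed transcript, Ccnd1-201, has 5 exons and an open reading frame of 885 bases.

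Ccnd2, the D cyclin known to be required for adult neurogenesis in the mouse, was at 1714 and 4466 normalized counts under the WT label and at 3813, 3103 and 3812 under the p75NTR-/- label. Again replicate 1 labelled WT was the lowest library and replicate 4 labelled WT the highest. The log2 difference of 0.36 (standard error 0.43, limma adjusted p = 0.93) was 1.15 within number 1 and -0.23 within number 4, and it was -0.33 without replicate 1 labelled WT. The short transcript Ccnd2-202, which has 3 exons and no exonic base of its own, took 5.68% to 6.98% of the Ccnd2 counts, and the full-length Ccnd2-201 the rest.

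Ccnd3, the third D cyclin, varied little, with 454 and 546 normalized counts under the WT label and 429, 556 and 588 under the p75NTR-/- label. The labels overlapped, the log2 difference was 0.06 (standard error 0.22, limma adjusted p = 0.98), and its sign turned to -0.07 without replicate 1 labelled WT and to -0.03 without replicate 4 labelled p75NTR-/-. Its shorter listed form, Ccnd3-208, took 13.1% to 20.7% of the counts in the 5 libraries. Neither form has an exonic base of its own, so the split between them is uncertain.

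Within the D cyclins, Ccnd1 made up 45.6% and 63.9% of the summed TPM in replicates 1 and 4 labelled WT and 65.7%, 65.8% and 63.2% in replicates 1, 2 and 4 labelled p75NTR-/-. The share lay between 63.2% and 65.8% in every library but replicate 1 labelled WT. The mean difference was 10.1 percentage points (two-sided exact permutation test, p = 0.2, adjusted over 3 such tests 0.3, smallest possible p 0.1), and 0.98 points without that library. For Ccnd2 the shares were 36.7% and 30.1% under the WT label and 29.1%, 25.5% and 28.8% under the p75NTR-/- label. Both values of the WT label were the higher ones, the mean difference was -5.64 points (two-sided exact permutation p = 0.1, adjusted 0.3), and within numbers 1 and 4 it was -7.61 and -1.36 points. Ccnd3 took 17.7% in replicate 1 labelled WT, where the other cyclins were low, and 5.29% to 8.73% elsewhere.

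Cdk4 (ENSMUSG00000006728, chromosome 10 from 127063534 to 127067920), the main partner of the D cyclins in these libraries by its level, was at 9761 and 7118.5 normalized counts under the WT label and at 9093, 9808 and 7074 under the p75NTR-/- label. The libraries numbered 4 were the lowest under both labels. The log2 difference between the labels was 0.04 (standard error 0.24, limma adjusted p = 0.99), whereas number 4 lay 0.46 below number 1 within the WT label and 0.42 below the mean of the other libraries within the p75NTR-/- label. Without replicate 4 labelled WT the difference was -0.19. Cdk6, the other D cyclin partner, was at 49.1 and 26.0 normalized counts under the WT label and at 30.7, 28.8 and 29.6 under the p75NTR-/- label, below the mean of 50 that a call needs. The TPM of Cdk4, summed over its listed forms, was 344 to 579 times that of Cdk6 in the same library. Per kb of annotated transcript, Cdk4 was at 1223 to 2084 times Cdk6. The log2 difference of Cdk6 was -0.26 (standard error 0.30, limma adjusted p = 0.93), and 0.18 without replicate 1 labelled WT.

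Of the 9 annotated Cdk4 transcripts 2 were listed, and they are shown because they differ by 1 exon. Cdk4-208 lacks exon 3 (chr10:127064585-127064720, plus strand), whose 136 bases are no multiple of 3, and is annotated as a target of nonsense-mediated decay. Capitals mark exon 3, and both runs are 5' to 3' from the GENCODE transcripts of GRCm38.
Cdk4-201: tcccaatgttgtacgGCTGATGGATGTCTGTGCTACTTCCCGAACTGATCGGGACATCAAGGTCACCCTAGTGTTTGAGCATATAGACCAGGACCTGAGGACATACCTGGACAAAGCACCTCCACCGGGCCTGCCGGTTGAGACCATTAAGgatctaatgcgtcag
Cdk4-208: tcccaatgttgtacggatctaatgcgtcag
The exon 2 to exon 4 join is found in no other annotated Cdk4 transcript. Cdk4-208 took 7.79% of the Cdk4 counts in replicate 1 labelled WT (95% Clopper-Pearson interval 7.27% to 8.34%) and 4.43% in replicate 4 (3.95% to 4.94%). In replicates 1, 2 and 4 labelled p75NTR-/- it took 6.57%, 7.47% and 4.91%. The intervals of the libraries numbered 4 lay below those of the other 3, under both labels. Such intervals cover counting error only. The log2 difference of Cdk4-208 between the labels was 0.12 (standard error 0.55, limma adjusted p = 0.98). Its TPM share was far larger, since 2.02 counts per kb made 1 TPM for Cdk4-208 and 8.79 for Cdk4-201, and the Cdk4 TPM sum rests in part on it.

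Cdk2 (ENSMUSG00000025358, chromosome 10 from 128697939 to 128705031, minus strand), the partner of E and A cyclins at the start of S phase, was at 335 and 443 normalized counts in the libraries labelled WT and at 656, 646 and 448 in replicates 1, 2 and 4 labelled p75NTR-/-. The labels did not overlap, but the libraries numbered 4 lay close to each other. Of the 9 genes 1 was higher without overlap (7.52% of all gene sums were) and 1, Cdkn1b, lower (7.53%), or 2 of 9 in either direction against 15% of all. The log2 difference of Cdk2 was 0.58 (standard error 0.26, unadjusted p = 0.077 and adjusted p = 0.93 by limma). edgeR gave an unadjusted p of 0.054 and DESeq2 one of 0.045, with adjusted p-values of 0.95 and 1.00. Within number 1 the difference was 0.97, within number 4 it was 0.015, and with each library left out in turn it ran from 0.37 (without replicate 1 labelled WT) to 0.78. The summed level of the 5 cycling markers was likewise higher in replicates 1 and 2 than in replicate 4 labelled p75NTR-/- and lowest in replicate 1 labelled WT; their part in this difference was not tested.

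The 2 listed Cdk2 forms differ by exon 6 (chr10:128699976-128700119, minus strand), 144 bases that keep the reading frame and are present in Cdk2-202 only. Capitals mark that exon, and both runs are 5' to 3' from the GENCODE transcripts of GRCm38.
Cdk2-202: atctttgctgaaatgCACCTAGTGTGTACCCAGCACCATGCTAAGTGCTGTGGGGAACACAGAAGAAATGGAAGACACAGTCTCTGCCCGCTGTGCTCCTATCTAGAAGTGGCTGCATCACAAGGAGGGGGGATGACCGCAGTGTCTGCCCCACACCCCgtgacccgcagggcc
Cdk2-201: atctttgctgaaatggtgacccgcagggcc
The join that leaves out exon 6 is shared with 2 annotated transcripts that were not listed. Cdk2-201 was at 196 and 250 normalized counts under the WT label and at 436, 424 and 208 under the p75NTR-/- label, and Cdk2-202 at 138 and 193 under the WT label and at 220, 222 and 240 under the p75NTR-/- label. The form without exon 6 was therefore high in replicates 1 and 2 labelled p75NTR-/- alone, whereas the form with it was the more even of the pair and did not overlap between the labels. Cdk2-201 took 58.7% and 56.3% of the Cdk2 counts in the libraries labelled WT and 66.5%, 65.6% and 46.5% in those labelled p75NTR-/-. The share of 46.5% in replicate 4 labelled p75NTR-/- had a 95% Clopper-Pearson interval of 41.6% to 51.3%. That interval lay below those of all other libraries, the lowest of which began at 51.5%. These intervals cover counting error only. Cdk2-201 has 5 exonic bases of its own, and error in assigning reads to the forms is left out. limma gave log2 differences of 0.61 (standard error 0.42, adjusted p = 0.96) for Cdk2-201 and 0.47 (standard error 0.23, adjusted p = 0.96) for Cdk2-202.

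**Figure D2:**
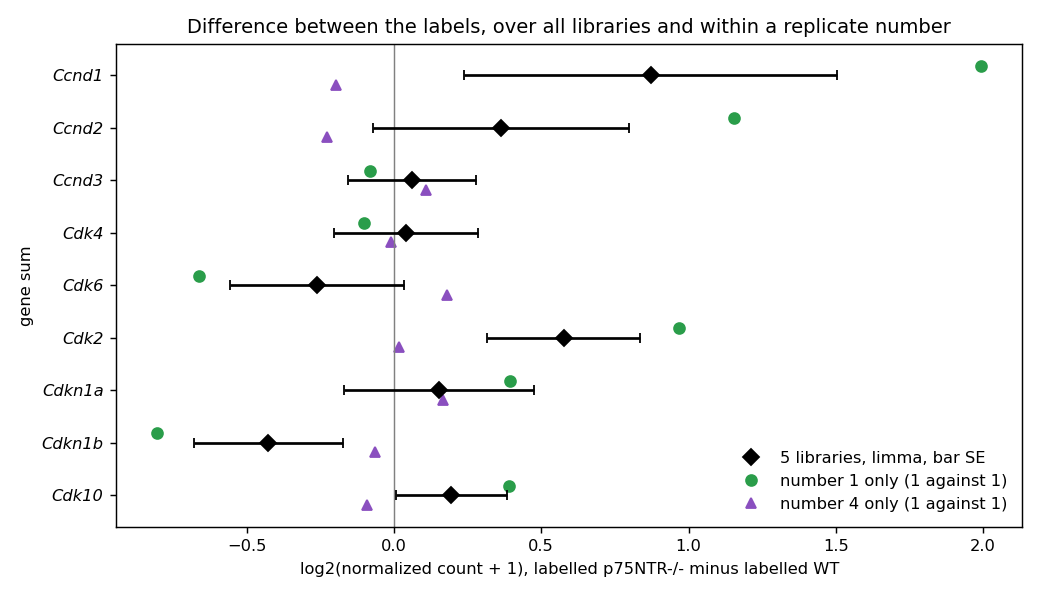
Log2 difference between the labels for each gene sum on the x axis, as the limma estimate over the 5 libraries with its standard error (diamonds) and as the difference of the 1 library of each label numbered 1 (circles) or 4 (triangles). Circles reach from -0.80 for Cdkn1b to 1.99 for Ccnd1, whereas all triangles lie between -0.23 and 0.18.

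Cdkn1a, whose product p21 stops the cycle after DNA damage and in quiescence, was at 1924 and 3201 normalized counts under the WT label (replicates 1 and 4) and at 2529, 2308 and 3592 under the p75NTR-/- label (replicates 1, 2 and 4). The libraries numbered 4 were the highest under both labels, and the labels overlapped. The log2 difference was 0.15 (standard error 0.32, limma adjusted p = 0.96), -0.22 without replicate 1 labelled WT and -0.04 without replicate 4 labelled p75NTR-/-. Number 4 lay 0.73 above number 1 within the WT label and 0.57 above the mean of the other libraries within the p75NTR-/- label. Trp53, which encodes the p53 activator of Cdkn1a, was at 721 and 1003 normalized counts under the WT label and at 917, 983 and 943 under the p75NTR-/- label. The p53 target Mdm2 was at 822 and 1644 under the WT label and at 1184, 989 and 1519 under the p75NTR-/- label, again highest in the libraries numbered 4. Both were picked for mention after their values had been seen.

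All listed Cdkn1a counts belonged to Cdkn1a-202 (ENSMUST00000119901), 1 of 5 annotated transcripts, and the form that starts 2790 bases downstream, Cdkn1a-201, was not listed. The 250 bases before each start are shown because the annotated starts have different promoters. Both are from RefSeq (GRCm38.p6, plus strand), the upstream window at chr17:29090729-29090978 and the downstream one at chr17:29093519-29093768. Capitals mark a full p53 site (the published consensus, at most 1 mismatch in 20 bases, both strands covered by its symmetry) and GC boxes (GGGCGG or CCGCCC).
Cdkn1a upstream start: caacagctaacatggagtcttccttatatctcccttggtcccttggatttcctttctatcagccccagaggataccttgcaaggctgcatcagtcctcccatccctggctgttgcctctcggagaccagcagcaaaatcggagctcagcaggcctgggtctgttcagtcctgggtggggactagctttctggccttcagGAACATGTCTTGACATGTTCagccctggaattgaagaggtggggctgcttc
Cdkn1a downstream start: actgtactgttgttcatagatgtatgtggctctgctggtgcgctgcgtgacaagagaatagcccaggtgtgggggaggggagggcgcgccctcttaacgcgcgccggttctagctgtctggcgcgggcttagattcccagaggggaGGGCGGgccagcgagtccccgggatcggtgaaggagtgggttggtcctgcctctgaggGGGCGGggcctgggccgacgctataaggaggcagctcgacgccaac
The upstream window held 1 full p53 site, which ended 31 bases before the start, and 0 GC boxes. The downstream window held 2 GC boxes and 0 full p53 sites. Of 32817 promoter windows of the same length, 0.0762% held a full p53 site and 32.7% a GC box. The first intron of Cdkn1a-202 is found in no other annotated Cdkn1a transcript, but the transcript has no exonic base of its own. The start in use was therefore not settled, and a part of p53 in the Cdkn1a counts was not tested.

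Cdkn1b, whose product p27 binds cyclin and Cdk2 complexes, was at 997 and 975 normalized counts under the WT label and at 571, 741 and 932 in replicates 1, 2 and 4 labelled p75NTR-/-. The labels did not overlap, although replicate 4 labelled p75NTR-/- was close to both libraries labelled WT. The log2 difference of -0.43 (standard error 0.25, unadjusted p = 0.15 and adjusted p = 0.93 by limma) was -0.80 within number 1, -0.06 within number 4 and between -0.60 (without replicate 4 labelled p75NTR-/-) and -0.25 (without replicate 1 labelled p75NTR-/-) with each library left out in turn. Foxo3, a forkhead factor known to act upstream of Cdkn1b, was at 762 and 629 normalized counts under the WT label and at 317, 419 and 718 under the p75NTR-/- label. Within the p75NTR-/- label its values stood in the same order as those of Cdkn1b. Over both labels together the orders differed, and a link between the genes was not tested. The ratio of Cdkn1a to Cdkn1b in normalized counts was 1.93 and 3.28 in the libraries labelled WT and 4.43, 3.11 and 3.85 in those labelled p75NTR-/-.

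The D cyclins summed to 302 and 956 TPM under the WT label and to 849, 792 and 832 TPM under the p75NTR-/- label. The Cip/Kip genes Cdkn1a and Cdkn1b summed to 541 and 825 TPM under the WT label and to 637, 610 and 895 TPM under the p75NTR-/- label. Replicate 1 labelled WT was the lowest library for both sums and more so for the cyclins. The D cyclin to Cip/Kip ratio was 0.558 in that library and 1.16 in replicate 4 labelled WT, and 1.33, 1.30 and 0.929 in replicates 1, 2 and 4 labelled p75NTR-/-. On the log2 scale the labels differed by 0.54 (two-sided exact permutation p = 0.3, adjusted over 3 such tests 0.3), by 1.26 within number 1 and by -0.32 within number 4. Without replicate 1 labelled WT the difference was 0.015.

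**Figure D3:**
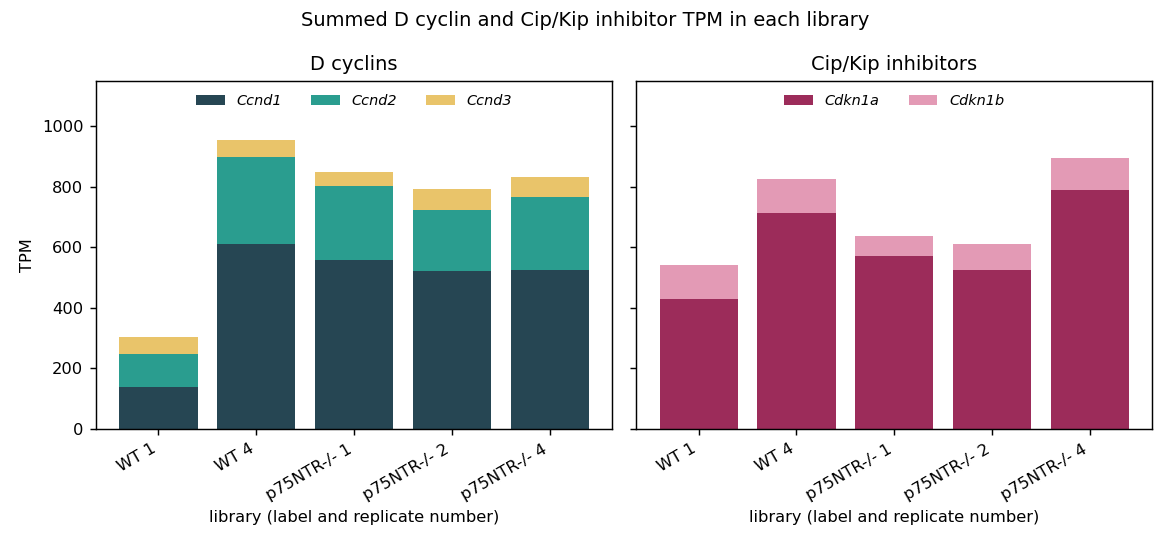
Stacked TPM (y axis, from 0) of the D cyclin genes at the left and of the listed Cip/Kip inhibitor genes at the right in each of the 5 libraries on the x axis. The D cyclin bar of replicate 1 labelled WT ends at 302 TPM and those of the other libraries between 792 and 956, whereas the inhibitor bars of the libraries numbered 4 (825 and 895) are the tallest.

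Cdk10 (ENSMUSG00000033862, chromosome 8 from 123224842 to 123232250) was at 264 and 288 normalized counts in all under the WT label and at 346, 336 and 270 under the p75NTR-/- label. The labels overlapped and the log2 difference of the gene sum was 0.19 (standard error 0.19, limma adjusted p = 0.93), with 0.39 within number 1 and -0.09 within number 4. Of its 12 annotated transcripts 3 were listed. Cdk10-201 encodes the full kinase, Cdk10-205 has an exon 5 longer by 24 bases and is annotated as a target of nonsense-mediated decay, and Cdk10-212 has an exon 1 shorter by 38 bases, which is no multiple of 3, and an open reading frame annotated from exon 3 in place of exon 1. The join of exons 1 and 2 is shown for both lengths of exon 1 because the difference described next rests on it. Capitals mark the bases at chr8:123224931-123224968 (GRCm38, plus strand, GENCODE transcripts) that the shorter exon 1 lacks.
Cdk10-201: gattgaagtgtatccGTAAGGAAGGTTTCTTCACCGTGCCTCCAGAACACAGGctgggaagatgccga
Cdk10-212: gattgaagtgtatccctgggaagatgccga
The short join is shared with 2 annotated transcripts that were not listed, and Cdk10-212 has no exonic base of its own, so the assignment of counts to it is uncertain.

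Cdk10-212 (ENSMUST00000213005) was at 0 counts in each library labelled WT and at 32.7, 117 and 26.4 normalized counts in replicates 1, 2 and 4 labelled p75NTR-/-. All 3 libraries labelled p75NTR-/- were above both labelled WT, and it was in these libraries that the study picked the transcript for its difference. Against a floor of 3 counts per library the mean was at least 19.3-fold higher under the p75NTR-/- label, and at least 9.74-fold higher without replicate 2, which held most of the counts. Of all transcripts, 0.337% were likewise at 0 counts under the WT label and had over 3 in each library labelled p75NTR-/-. It was not called, because its mean of 35.1 was below 50 and its limma adjusted p was 0.30. edgeR gave an adjusted p of 1.00 and DESeq2 one of 0.0046, and 0.296% of transcripts had a DESeq2 adjusted p under 0.05 in that direction.

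Cdk10-212 took 0 of 269 and 0 of 277 Cdk10 counts in the libraries labelled WT, with 95% Clopper-Pearson upper limits of 1.36% and 1.32%. It took 9.43% in replicate 1 (95% Clopper-Pearson interval 6.58% to 13.0%), 34.6% in replicate 2 (29.1% to 40.5%) and 9.77% in replicate 4 (6.42% to 14.1%) labelled p75NTR-/-. Its share in replicate 2 was thus above those of the other libraries by more than counting error. Cdk10-201 was at 225 and 260 normalized counts under the WT label and at 247, 160 and 210 under the p75NTR-/- label, with the lowest value in replicate 2, where Cdk10-212 was highest. The log2 difference of Cdk10-201 was -0.25 (standard error 0.27, limma adjusted p = 0.96), and -0.08 without replicate 2 labelled p75NTR-/-. Cdk10-205 was at 39.2 and 28.1 normalized counts under the WT label and at 66.3, 60.1 and 33.8 under the p75NTR-/- label, a log2 difference of 0.61 (standard error 0.39, limma adjusted p = 0.96). The labels overlapped for both of these forms.

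Ccnq, which encodes the cyclin that Cdk10 needs for activity, was at 197 and 259 normalized counts under the WT label and at 243, 258 and 248 under the p75NTR-/- label. Its log2 difference was 0.14 (standard error 0.19, limma adjusted p = 0.93), and -0.05 without replicate 1 labelled WT. Pkn2, a kinase phosphorylated by Cdk10, had a log2 difference of 0.01 (standard error 0.17). Ets2, whose protein Cdk10 marks for degradation, was at 165 and 650.2 normalized counts under the WT label. Under the p75NTR-/- label Ets2 was at 245, 241.5 and 735, high in the libraries numbered 4 of both labels. Its RNA was not ordered by the Cdk10-212 counts. RNA does not give protein stability, and an effect of Cdk10 on Ets2 was not tested.

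**Figure D4:**
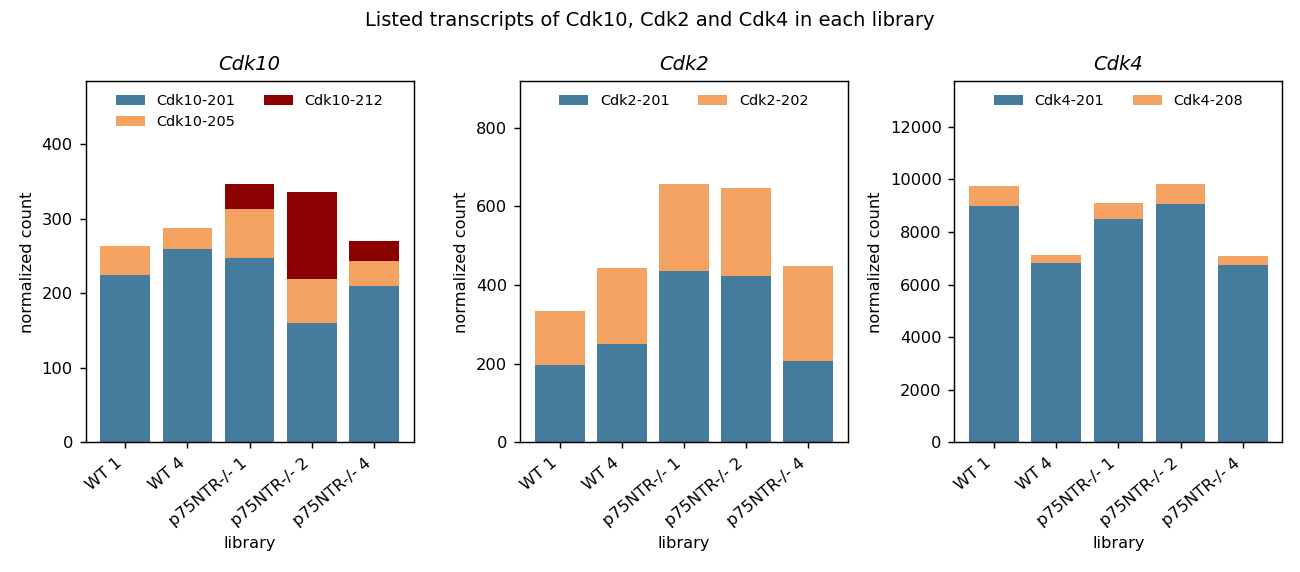
Normalized counts (y axes, from 0) of the listed transcripts of Cdk10, Cdk2 and Cdk4, stacked for each of the 5 libraries on the x axis. The Cdk10-212 segment is absent from both libraries labelled WT and tallest in replicate 2 labelled p75NTR-/- (117), and the Cdk2-201 segment is tallest in replicates 1 and 2 labelled p75NTR-/- (436 and 424).

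Over the 9 genes, the closest pair of libraries carried different labels. The mean absolute log2 difference over the 9 genes was 0.12 between the libraries numbered 4 of the 2 labels and 0.17 between replicates 1 and 2 labelled p75NTR-/-. Replicate 1 labelled WT was 0.64 to 0.73 away from each of the others, and 0.71 from the other library of its own label. Over all genes with a mean of at least 50 the same pairs were closest, at 0.13 and 0.22, so this order was not particular to the 9 genes. Over all these genes replicate 1 labelled WT was 0.43 to 0.48 from the rest, and the remaining pairs were 0.38 to 0.42 apart. Over the 9 genes those remaining pairs were 0.31 to 0.36 apart, so replicate 1 labelled WT stood out more there. Replicate 1 labelled WT was the lowest library for 5 of the 9 genes and for 31.5% of all gene sums.

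Genes outside the 10 with the most similar pattern over the 5 libraries were found by the root mean square distance between centred log2 values among 10778 genes with a mean of at least 50. For Ccnd1, the D cyclin with the highest mean TPM, they were Nptx2 (distance 0.055) and Slc7a1 (0.088). Nptx2 was at 156 and 616 normalized counts under the WT label and at 592, 555 and 565 under the p75NTR-/- label, as low as Ccnd1 in replicate 1 labelled WT relative to the rest. For Cdk4 they were Ehmt1 (0.023) and Nup214 (0.025), both low in the libraries numbered 4. For Cdkn1a they were Slc39a10 (0.025) and Efemp2 (0.035), both high in the libraries numbered 4. The likeness rests on 5 libraries and 10778 candidates.

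Around the G1 regulators, 48 further genes of the pathway were read by role, all of them listed. limma called 0 of 48 higher and 0 of 48 lower, beside 0.00794% and 0% of all gene sums. An unadjusted limma p under 0.05 was reached by 0 of 48, beside 2.08% of all. edgeR and DESeq2 also called 0 of 48 (0% and 0.0556% of all gene sums). Their unadjusted p was under 0.05 for 1 of 48 (2.11% of all) in edgeR and 4 of 48 (3% of all) in DESeq2. Cks1b, a cofactor of p27 destruction that was named after its value was seen, had the lowest limma value of the list, unadjusted 0.064 and adjusted p 0.93. The log2 difference was above 0 for 34 and below 0 for 14 of the 48, against 6379 above and 6207 below among all 12588 gene sums. The median of the list was 0.16 (0.42 within number 1, -0.06 within number 4 and 0.06 without replicate 1 labelled WT), against 0.0039 over all gene sums. Replicate 1 labelled WT was the lowest library for 29 of the 48 (60.4%) and for 31.5% of all gene sums. The summed level of the 5 cycling markers was lowest in that library and highest in replicates 1 and 2 labelled p75NTR-/-. Among them Mki67 was lowest in replicate 4 labelled p75NTR-/- (4092 normalized counts, against 4462 in replicate 1 labelled WT). The part of these markers in the values of the list was not tested.

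The E and A cyclins, which act with Cdk2, had a median log2 difference of 0.58 over 3 genes, all above 0 with the 5 libraries. Without replicate 1 labelled WT the median was 0.17 and the third of these genes, Ccne1, was at -0.05. Ccne2 was at 150.2 and 283 normalized counts under the WT label and at 625, 483 and 209 under the p75NTR-/- label, with replicates 1 and 2 of the latter high and number 4 not, for a log2 difference of 0.95 (standard error 0.56, limma adjusted p = 0.93). Ccna2 had the smallest difference of these cyclins, 0.48 (standard error 0.26). Without replicate 1 labelled WT, Ccne2 was at 0.49 and Ccna2 at 0.17. The E2F and DP factors had a median of 0.39, with 9 of 10 above 0. E2f7, a repressor of the family, reached 0.76 (standard error 0.39), and Tfdp2, a partner of the E2Fs, was at -0.04 (standard error 0.24). Without replicate 1 labelled WT the median of this list was 0.12, with E2f7 at 0.35 and Tfdp2 at 0.15. Medians of both lists were below 0 within number 4, at -0.29 and -0.13.

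The pocket proteins, which hold E2Fs back, differed in direction. Rbl1, known as an E2F target, was at 440 and 741 normalized counts under the WT label and at 917, 954 and 689 under the p75NTR-/- label (log2 difference 0.56, standard error 0.30). Rbl2, the pocket protein of resting cells, was at 1268 and 848 under the WT label and at 661, 724 and 883 under the p75NTR-/- label (log2 difference -0.47, standard error 0.25). Neither passed the test (adjusted p = 0.93 by limma for both), and the labels overlapped for both. Without replicate 1 labelled WT the differences were 0.19 for Rbl1 and -0.18 for Rbl2. Replicate 1 labelled WT held the least Rbl1 and the most Rbl2.

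Of the genes that act on p27 and cyclin turnover, Skp2, the ligase subunit that binds p27, was at 196 and 241 normalized counts under the WT label and at 458, 416 and 232 under the p75NTR-/- label, a log2 difference of 0.70 (standard error 0.35, limma adjusted p = 0.93). High Skp2 RNA and low Cdkn1b RNA were found in the same libraries, replicates 1 and 2 labelled p75NTR-/-, and a link between them was not tested. Fbxo31, which targets cyclin D1, was at -0.10 (standard error 0.18), and at 0.06 without replicate 1 labelled WT. Among the Cdk activators the phosphatase gene Cdc25a was at 0.51 (standard error 0.33), or 0.31 without replicate 1 labelled WT, and Mnat1, a subunit of the activating kinase, at -0.10 (standard error 0.15). The INK4 inhibitors of Cdk4 and Cdk6 had a median of -0.02, between -0.08 for Cdkn2d and 0.24 for Cdkn2c, with standard errors of 0.20 and 0.30. These were -0.19 and 0.43 without replicate 1 labelled WT, and the median was 0.06.

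In the DREAM complex and Myb-FoxM1 list, Foxm1, a driver of mitotic genes, was at 0.51 (standard error 0.28) and Lin52 at -0.48 (standard error 0.29). Leaving out replicate 1 labelled WT took them to 0.25 and -0.14. Among inputs to G1, Myc, which raises Ccnd2 and Cdk4 transcription, was at 452 and 1012 normalized counts under the WT label and at 1667, 1338 and 975 under the p75NTR-/- label, a log2 difference of 0.94 (standard error 0.43, limma adjusted p = 0.93). Foxo3 was at the other end of that list with -0.60 (standard error 0.38, limma adjusted p = 0.93). For Myc and Foxo3 the differences within number 4 were -0.05 and 0.19, against 1.88 and -1.26 within number 1. With replicate 1 labelled WT left out, Myc was at 0.36 and Foxo3 at -0.46.

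**Figure D5:**
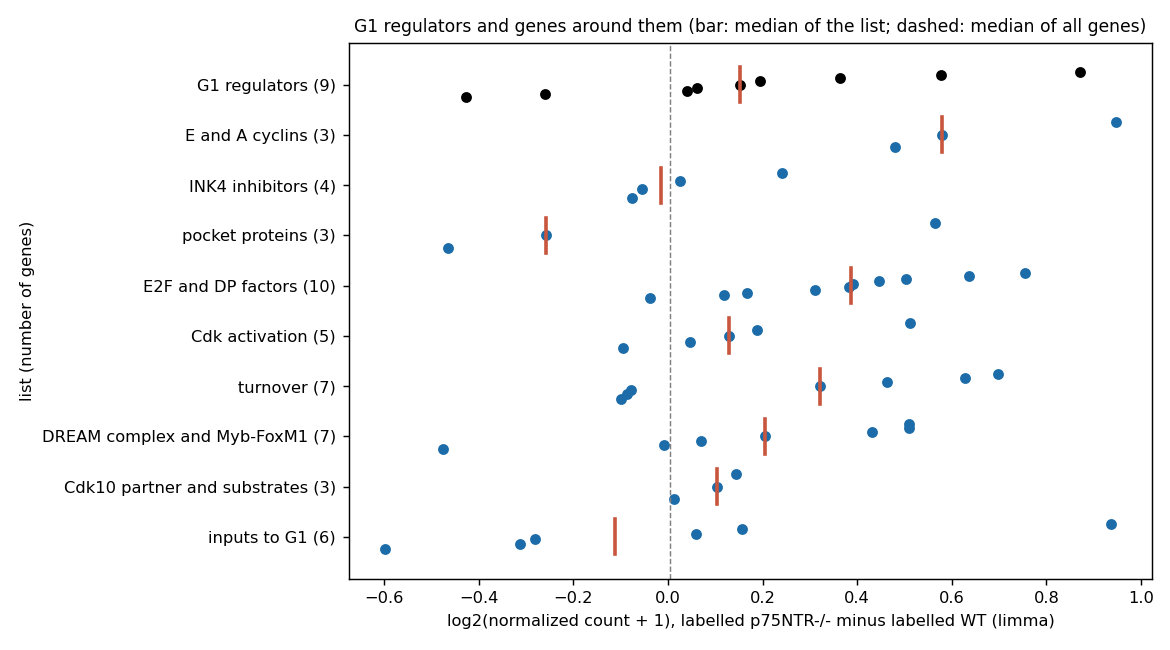
Log2 difference between the labels (x axis, limma) of each gene, by role on the y axis, with the median of each list as a bar and the median of all gene sums as a dashed line. With all 5 libraries the E and A cyclins and 9 of 10 E2F and DP factors lie above 0, and the INK4 inhibitors within -0.08 to 0.24.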

How the data were processed

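RNA-Seq of 5 NSPC libraries was read from 1 table, and no column of values for a sample was passed over (0 unused). The authors made stranded mRNA libraries from 500 ng RNA, quantified reads with Salmon 0.10.2 on the GRCm38.p6 transcripts of Ensembl and used DESeq2 1.22.0 for size factors. The deposited signal of each library is the authors' count divided by the size factor, plus 0.5. The authors' TPM columns were deposited per transcript and read as a score, since the repeated lines take their sum past the total that TPM allows. The authors' own fold changes, p-values and mean counts were not used. Salmon shares reads among transcripts by estimation, so splits between forms without exonic bases of their own are uncertain.

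Of 22530 lines, 303 repeats were dropped, which left 22227 transcripts and 12588 gene sums (12572 symbols). After 0.5 was subtracted, 100% of values were whole multiples of 1 step per library (0.981 to 1.20), and counts were recovered by division, with totals of 11688211 to 14452396. Normalized counts were compared by limma 3.58.1 (lmFit, eBayes) on log2(normalized count + 1) in R 4.3.3, over all features, with Benjamini-Hochberg adjustment. A log2 difference on that scale understates changes of low genes. The criteria of the study's methods defined a call (mean of at least 50, fold of at least 1.5, adjusted p under 0.05). edgeR 4.0.16 (quasi-likelihood, TMM) and DESeq2 1.42.0 on the recovered counts, other pseudocounts, a filter, TPM, the replicate number and leaving out libraries were alternatives, and counts per annotated kb were added after the data had been seen. Single values were compared by exact permutation over 10 arrangements. The fits were tested on simulated data in which no library stood apart as replicate 1 labelled WT does here.

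Coordinates and exons are from GENCODE M21 (GRCm38) and promoters from RefSeq, in which 7 of the 10 symbols matched. The 10 genes, the pathway and marker lists and the alternatives were chosen with earlier results of these data known. Named were all listed members, pathway genes past the threshold or with an unadjusted p under 0.05, the genes of highest and lowest difference in each role, Ngfr, and the 2 most alike genes of the most abundant member in each of 3 roles; other genes are said to be named after their values were seen. Ets2, Ccne1 and the cell type markers were also named in that way. Python 3.11.15 with pandas 2.3.3, numpy 2.4.6, scipy 1.17.1 and matplotlib 3.10.9 was used.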

Additional observations from a re-analysis of the deposited data

How the results depend on the processing

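No alternative called any gene sum of the 9 G1 regulators, any of their 15 transcripts or any of the 48 pathway genes. These counts were 0 in limma with other pseudocounts, filters, TPM or no minimum mean, in edgeR, in DESeq2 and with each library left out; for Cdk10-212 DESeq2 gave a log2 difference of 8.28 past its adjusted threshold, at a mean under 50. Over all alternatives 97 of 108 log2 differences of the 9 gene sums kept their direction and 11 reversed. With each library left out in turn, a fit in which a lone WT library is assumed to vary like the others, the ranges that crossed 0 among the genes of the naming rule were -0.20 to 1.94 for Ccnd1 (gene sum and transcript), -0.33 to 1.05 for Ccnd2 (-0.31 to 1.07 for Ccnd2-201 and -0.54 to 0.77 for Ccnd2-202), -0.071 to 0.20 for Ccnd3 (-0.042 to 0.47 for Ccnd3-208 and -0.14 to 0.23 for Ccnd3-215), -0.19 to 0.27 for Cdk4 (-0.16 to 0.24 for Cdk4-201 and -0.51 to 0.76 for Cdk4-208), -0.71 to 0.18 for Cdk6 and -0.22 to 0.52 for Cdkn1a. In the pathway list they were -0.051 to 0.34 for Ccnq, -0.19 to 0.043 for Cdkn2d, -0.26 to 0.063 for Fbxo31, -0.068 to 0.074 for Pkn2 and -0.23 to 0.15 for Tfdp2. Ccnd2-202 was at -0.029 in edgeR and -0.035 in DESeq2, and Cdkn2d at 0.060 in TPM; the cause was not tested. The Ccnd1 share ran from 0.98 to 19.3 points, the Ccnd2 share from -8.89 to -2.38 points and the D cyclin to Cip/Kip ratio from 0.015 to 1.07.

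With the replicate number as a block, limma called 0 gene sums and 0 transcripts (1 and 3 without the block), and 240 gene sums had an unadjusted p under 0.05 (262 without). Only 2 numbers are shared by the labels and nothing ties them to a litter or day, so they were not taken to pair the libraries; deviations from the label means correlated over 10786 genes at 0.26 for number 1 and 0.48 for number 4, but also at 0.48 between replicate 1 labelled WT and replicate 2 labelled p75NTR-/-, which share no number, and with 2 WT libraries the deviations of one are those of the other with the sign turned. Under the block Cdk4 turned to -0.056 (Cdk4-201 to -0.050 and Cdk4-208 to -0.10) and Ccnd3-208 to -0.042; the mean of the within-number differences was 9.65 points for the Ccnd1 share, -4.48 points for the Ccnd2 share and 0.47 for the log2 ratio. With 2 against 3 libraries no exact permutation p can fall below 0.1.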
